A study of Mus musculus with 6 samples.

Results

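The TNF superfamily is a set of cell-surface ligands, with Ltb (lymphotoxin beta) among them, and of the receptors they bind. The genes were chosen by name. All non-control probes whose gene name, or the present symbol of whose transcript accession, was among 35 listed members were taken, and 34 of the 35 had a probe, out of 22328 genes named in RefSeq on the array. These were 17 of the 18 listed ligands and all 17 listed receptors, read by 45 of the array's 55681 probes. Tnfsf13 had no probe under this rule.

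The livers came from male C3H/HeN mice aged 74 to 75 weeks, a strain that develops liver tumors spontaneously. All were unexposed controls of the F2 generation in a project on arsenic given during gestation, and had a standard diet and tap water. The 3 normal livers were set against 3 liver tumors, which by the study's methods were macroscopic tumors carrying a Ha-ras mutation. Nothing in the labels says whether tumors and normal livers came from separate animals, so the p-values measure only the spread between these tissues.

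Ligands of this family are mostly trimers made as membrane proteins, and some are cut from the surface. Receptors with a cytoplasmic death domain, such as Tnfrsf1a, can recruit caspase-activating adaptors, whereas most others bind TRAF adaptors and switch on NF-kB. Ltb forms a heterotrimer with Lta and signals through Ltbr, which activates chiefly the alternative NF-kB route, in which Map3k14 drives processing of Nfkb2 and its partner is Relb. In liver this axis is known for its part in lymphoid organisation, in regeneration through progenitor cells and in inflammation-driven cancer.

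Total RNA was labelled with 1 dye and hybridised to 6 SurePrint G3 Mouse GE arrays. Each value below is a relative signal, that is, the spot's processed intensity divided by the 75th percentile of its array, and values are listed for replicates 1, 2 and 3 of a group. A log2 difference is always liver tumor minus normal liver. All normal livers shared 1 slide and all tumors another, and the effect of the slide cannot be told apart from that of the tissue. Local background had a median of 42 to 45 intensity units on the normal arrays against 22 to 23 on the tumor arrays. By the scanner's flag, 44.7% to 48.9% of the spots on an array rose well above background, and no spot was saturated. The hepatocyte markers were bright on every array, with a summed relative signal of 10029 to 11134 in normal livers and 10083 to 10494 in tumors. Of these 9 markers, Apoa1 differed by 0.90 and Tat by -1.43 on the log2 scale (adjusted p = 0.0056 and 0.0035 by limma). The other 7 were not called at the threshold given below. Since whole tissue was profiled, fewer cells of a type and less RNA per cell cannot be told apart.

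Receptors were measured far more often than ligands. A gene entered the test where all 3 arrays of either group carried that flag for its brightest probe, which 13484 of 22328 genes did (60.4%). Of the receptors 16 of 17 passed, and of the ligands 4 of 17. On none of the 6 arrays were 10 ligands and 1 receptor, Tnfrsf13c, well above background.

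Of the 20 tested members, 12 differed between tumor and normal liver at an adjusted p under 0.05 by limma, 9 of them higher and 3 lower in tumors. Over all tested genes 36.9% were called, 14.6% higher and 22.3% lower. The called receptors were 9 of 16, with Tnfrsf18, Cd40, Tnfrsf12a, Tnfrsf21, Tnfrsf23, Tnfrsf9, Tnfrsf1a and Ltbr higher and Ngfr lower. The called ligands were 3 of 4, with Ltb higher and Tnfsf10 and Eda lower. The median log2 difference was 0.45 over the tested receptors and -0.47 over the 4 tested ligands, against -0.14 over all tested genes. The groups did not overlap for 13 of the 20 tested members, a pattern that 55.7% of all tested genes showed. Cd40, Tnfrsf18, Tnfrsf21, Tnfrsf23 and Eda, all called, passed the filter only through the group in which they were brighter. So did Tnfrsf11b, Tnfrsf13b and Tnfrsf22, which were not called. The filter thus favours members that differ, and these counts do not describe the 14 members left untested.

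**Figure D1:**
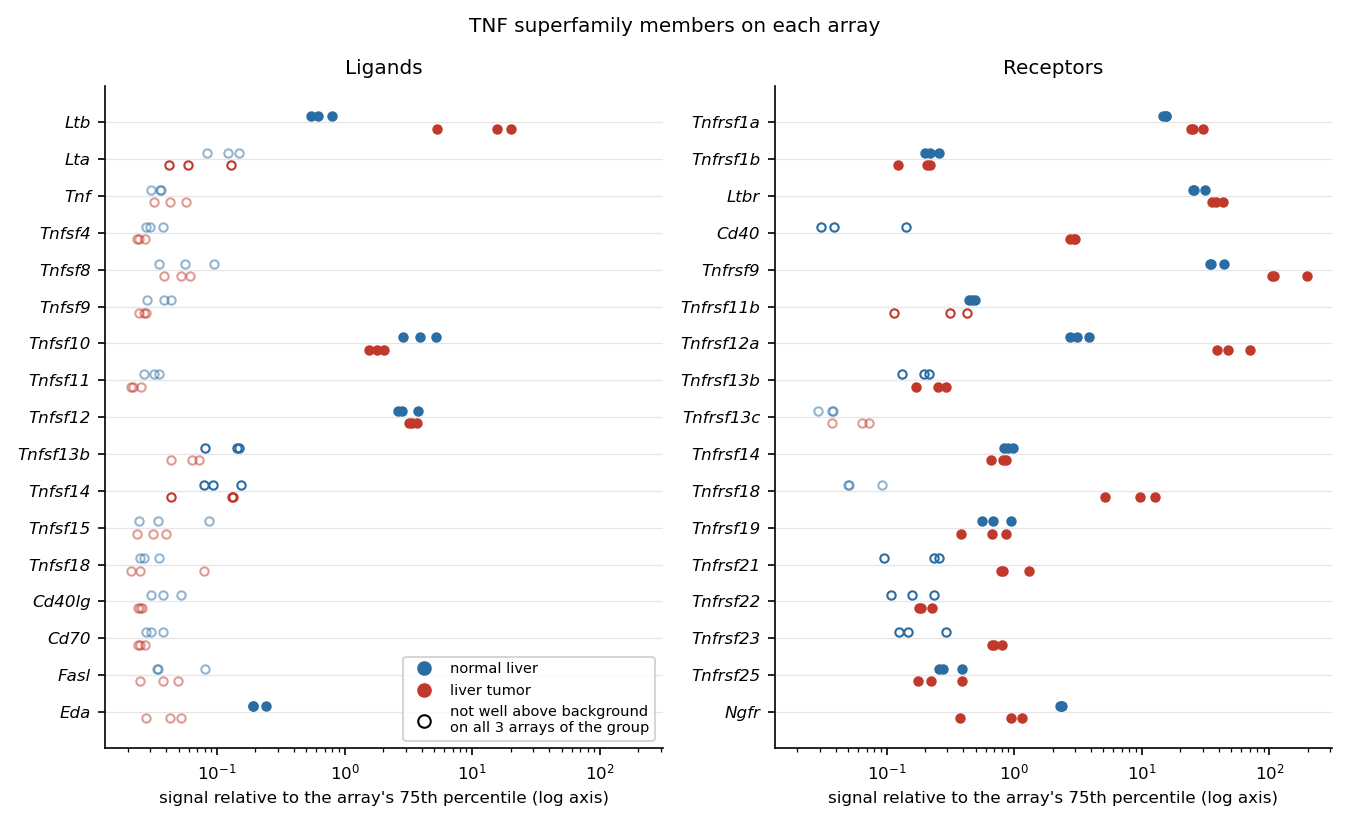
Relative signal of each ligand (left) and receptor (right) on each of the 6 arrays, on a log axis, with normal livers in blue and liver tumors in red. Open points mark groups in which the probe was not well above background on all 3 arrays, paler where it was so on none. Most ligands sit near the left edge, where values have no reliable order, and Ltb, Cd40, Tnfrsf12a and Tnfrsf18 show wide gaps between the colours.

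Ltb was the only one of the 4 tested ligands called higher in tumors. The probes shared by Tnfsfm13 and Tnfsf13, described below, were also called higher and stand outside this count. Its relative signal was 0.624, 0.546 and 0.792 in the normal livers and 20.1, 5.31 and 15.6 in the tumors. All 3 tumors lay above all 3 normal livers, and the second tumor was the lowest of its group. The means were 0.654 ± 0.126 (SD, n = 3) and 13.7 ± 7.59 (SD, n = 3). The log2 difference was 4.20 (SE 0.49, 95% interval 3.03 to 5.37), an 18.4-fold higher geometric mean, with an adjusted p of 0.0022 by limma. The exact permutation test of this gene alone gave a two-sided p of 0.1, the smallest that 3 against 3 samples allow. With normexp background correction the log2 difference was 3.58. The study picked Ltb by lower promoter methylation in tumors, its change on these same arrays and a literature search. Its direction here is therefore not independent evidence.

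Ltb lies on chromosome 17 at chr17:35194507-35196305 (GRCm38.p6, plus strand), next to Tnf and Lta in a stretch of 11.072 kb. The 250 bases before the annotated start of Ltb and of its neighbour Tnf are shown because of these 3 neighbours only Ltb passed the filter. They are the RefSeq sequences of the C57BL/6J reference, not of C3H. Capitals mark a match to the NF-kB consensus motif of 10 bases, searched on both strands, which in Ltb stands on the opposite strand 87 to 78 bases before the start. Of 32851 RefSeq promoter windows of this length 2382 held a match (7.25%), and of the 31 windows of 27 members 3 did (9.68%), those of Ltb, Tnfrsf9 and Tnfrsf25. Such a match of letters is a description, not a measured site, and the Tnf window held none. The Ltb window is chr17:35194257-35194506 on the plus strand and the Tnf window chr17:35202008-35202257 on the minus strand.
Ltb: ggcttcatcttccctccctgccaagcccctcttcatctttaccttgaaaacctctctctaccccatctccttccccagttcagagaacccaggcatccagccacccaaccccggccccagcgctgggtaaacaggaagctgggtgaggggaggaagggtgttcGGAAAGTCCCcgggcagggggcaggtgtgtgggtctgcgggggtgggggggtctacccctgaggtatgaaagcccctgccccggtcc
Tnf: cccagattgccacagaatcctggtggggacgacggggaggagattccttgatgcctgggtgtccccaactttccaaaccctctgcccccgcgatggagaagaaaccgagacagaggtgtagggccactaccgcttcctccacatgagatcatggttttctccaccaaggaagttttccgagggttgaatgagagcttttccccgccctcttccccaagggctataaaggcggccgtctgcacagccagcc

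The neighbours of Ltb stayed near background. Tnf, the founding cytokine of the family, was well above background on none of the 6 arrays. Lta, the partner of Ltb in the heterotrimer, was well above background in the first tumor only. Its relative signals were 0.148, 0.121 and 0.0828 in normal livers and 0.128, 0.0423 and 0.0595 in tumors, which overlapped. Neither gene was tested.

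Tnfsf10 (TRAIL), a ligand that can trigger apoptosis, was lower in tumors. It read 3.93, 5.15 and 2.86 in normal livers and 1.56, 1.79 and 2.02 in tumors, with no overlap. On the log2 scale the difference was -1.12 (SE 0.23, adjusted p = 0.0134 by limma), which is 2.17-fold lower. Eda (ectodysplasin A), known from the development of hair and teeth, was dim and lower in tumors. It read 0.192, 0.243 and 0.193 in normal livers, all well above background, and 0.0278, 0.0426 and 0.0518 in tumors, none of them so. In the processed signal it was therefore at least 2.03-fold lower, counting each tumor array at its detection floor, with an adjusted p of 0.0014 by limma. A gene well above background on every normal array and on no tumor array was rare, at 0.282% of all genes. The fitted log2 difference of Eda was -2.40 and shrank to -0.51 with normexp, a smaller change than that bound, which holds for the processed signal only. The second Eda probe was on no array well above background.

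Tnfsf12 (TWEAK), the ligand of Tnfrsf12a, was read by a pair of probes that disagreed. The brighter probe differed by 0.18 on the log2 scale (95% interval -0.21 to 0.57, adjusted p = 0.43 by limma), and the dimmer one by -0.47 (adjusted p = 0.0437 by limma). By the rule that the brightest probe stands for a gene, Tnfsf12 was not called.

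Tnfsf13 (APRIL), which supports plasma cells and B cells, overlaps a readthrough gene, Tnfsfm13, that joins Tnfsf12 and Tnfsf13 on chromosome 11 within 13.522 kb. The array has 2 probes named for the readthrough, and their annotation also lists Tnfsf13 transcripts, so the transcripts cannot be told apart by these probes. They stand outside the counts above. The brighter probe read 1.56, 1.38 and 1.85 in normal livers and 16.4, 18.3 and 17.6 in tumors. Its log2 difference was 3.46 (SE 0.14, adjusted p = 5.3e-05 by limma), an 11.0-fold higher signal. The dimmer probe differed by 2.16 (SE 0.15, adjusted p = 3.2e-04 by limma). Both probes rose, while neither Tnfsf12 probe was called higher. The last 30 bases of the brighter and of the dimmer probe are given so that the transcripts they read can be looked up.
Tnfsfm13 brighter probe: cattcctggggtttgtgaaactatgattgt
Tnfsfm13 dimmer probe: aacaaacaaataaacgaaaggctctccacg

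The remaining ligands were not tested. Tnfsf4, Tnfsf8, Tnfsf9, Tnfsf11, Tnfsf15, Tnfsf18, Cd40lg, Cd70 and Fasl, most of them products of activated lymphocytes or antigen-presenting cells, were well above background on no array. Tnfsf13b (BAFF), a B cell survival factor, was above background in 2 normal livers and no tumor. Tnfsf14 (LIGHT), another ligand of Ltbr, was above background in 1 normal liver and 1 tumor.

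**Figure D2:**
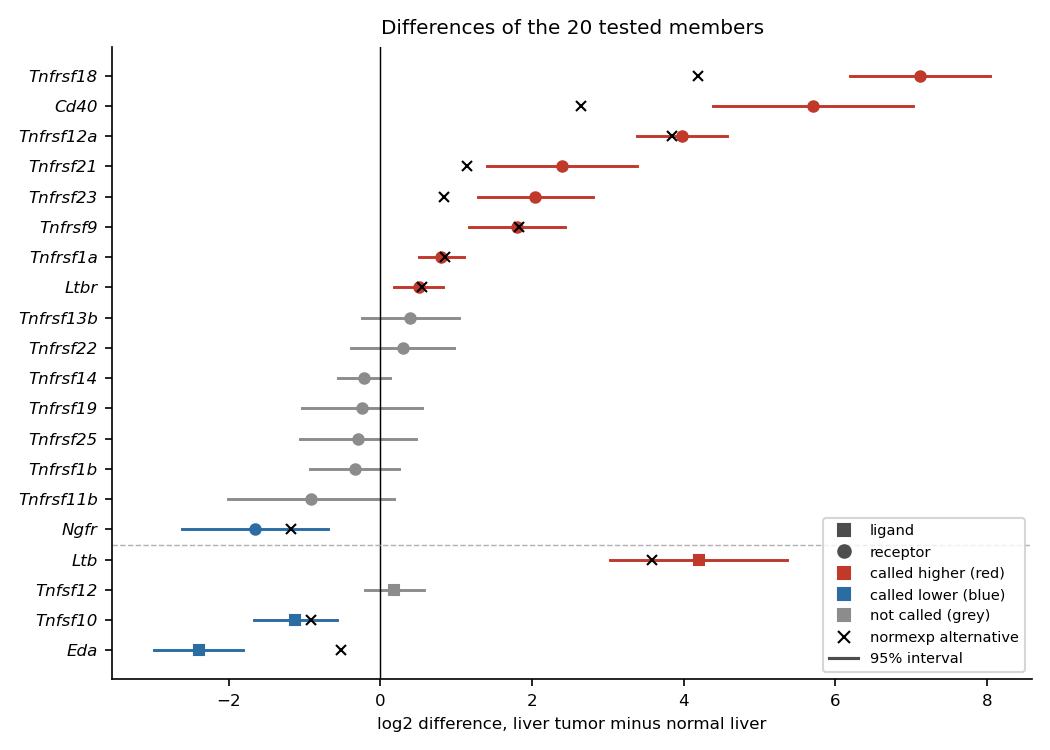
Log2 difference between liver tumor and normal liver for the 20 tested members, ligands as squares below the dashed line and receptors as circles above it, with 95% intervals from the limma fit. Crosses give the same difference after normexp background correction for the called members. Tnfrsf18, Cd40 and Ltb lie farthest to the right, and the crosses of Tnfrsf18, Cd40, Tnfrsf21, Tnfrsf23 and Eda lie well inside their fitted values, all on the same side of 0.

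Among the receptors that bind lymphotoxins and TNF, Ltbr and Tnfrsf1a were higher in tumors. Ltbr read 25.4, 31.2 and 25.8 in normal livers and 43.0, 38.2 and 35.7 in tumors, a difference of 0.51 on the log2 scale (SE 0.14, adjusted p = 0.0305 by limma) or 1.42-fold. The groups did not overlap, but the gap was narrow. The Ltbr call was lost without normal liver 1 or 3 or tumor 1 or 2, where the adjusted p by limma rose to between 0.0755 and 0.0861. Among the other limma settings it was also lost when arrays were scaled by the spike-in probes (adjusted p = 0.0630) and without the filter on dim probes (adjusted p = 0.115).

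Tnfrsf1a, the death-domain receptor of TNF, read 15.4, 14.7 and 15.4 in normal livers and 30.3, 24.3 and 25.3 in tumors. The normal livers hardly varied and all tumors lay above them. They differed by 0.81 on the log2 scale (SE 0.12, adjusted p = 0.0052 by limma), and a second probe gave 0.79 (adjusted p = 0.0051). Tnfrsf1b, the TNF receptor known from leukocytes, differed by -0.34 (95% interval -0.92 to 0.25) and was not called. Ltbr and Tnfrsf1a are neighbours with Cd27 on chromosome 6, within 129.864 kb, and Cd27, a lymphocyte receptor, was well above background on no array.

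Cd40, a receptor of B cells, dendritic cells and macrophages, went from near background to a clear signal. It read 0.0389, 0.0308 and 0.143 in normal livers, with only the third well above background, and 3.0, 2.74 and 2.97 in tumors. The tumors were close to each other and far above every normal liver. The fitted log2 difference was 5.71 (SE 0.55, adjusted p = 0.0011 by limma) and 2.64 with normexp, so its size depends on how the dim normal signals are corrected. Its ligand Cd40lg was not measurable.

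Tnfrsf12a (Fn14), the receptor of TWEAK, is known for its induction in injured and regenerating liver. Its relative signals were 3.13, 2.73 and 3.86 in normal livers and 70.3, 47.0 and 39.0 in tumors. All 6 arrays were well above background and the groups were far apart. The log2 difference was 3.98 (SE 0.25, adjusted p = 2.3e-04 by limma), a 15.8-fold higher signal, and 3.84 with normexp. Tnfrsf12a lies at chr17:23675445-23677449.

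Tnfrsf18 (GITR), a costimulatory receptor known from regulatory T cells, had the largest fitted difference of the tested members. No normal liver was well above background, with readings of 0.0512, 0.0497 and 0.0916, and all tumors were, at 12.6, 9.60 and 5.16. In the processed signal it was at least 75.3-fold higher in tumors, counting each normal array at its detection floor (adjusted p = 1.5e-04 by limma). Only 1.53% of all genes were well above background on every tumor array and no normal one. The fitted log2 difference was 7.12 and became 4.19 with normexp, which is below that bound, so the bound holds for the processed signal only. The neighbouring receptor gene Tnfrsf4 (OX40), within the same 15.3 kb of chromosome 4, differed by 0.03 (95% interval -0.34 to 0.41). It read 0.658, 0.562 and 0.605 in normal livers and 0.682, 0.692 and 0.510 in tumors, so its groups overlapped.

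Tnfrsf21, a death-domain receptor known from neurons and lymphocytes, read 0.0955, 0.234 and 0.259 in normal livers and 1.31, 0.785 and 0.822 in tumors. Normal livers 2 and 3 and all tumors were well above background. The log2 difference was 2.40 (SE 0.41, adjusted p = 0.0075 by limma), or 1.14 with normexp. Tnfrsf23, a decoy receptor of TRAIL in mice, read 0.147, 0.293 and 0.126 in normal livers, 1 of them above background, and 0.694, 0.809 and 0.675 in tumors. Its log2 difference was 2.04 (SE 0.31, adjusted p = 0.0053 by limma), or 0.83 with normexp, and its second probe was on no array above background. The adjacent decoy receptor Tnfrsf22 differed by 0.29 (95% interval -0.38 to 0.97) and was not called.

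Ngfr, the low-affinity neurotrophin receptor and a marker of hepatic stellate cells, was the only one of the 17 listed receptors called lower. It read 2.27, 2.35 and 2.39 in normal livers and 0.374, 0.942 and 1.15 in tumors. The normal livers agreed closely, and the first tumor lay below the other tumors. The log2 difference was -1.66 (SE 0.40, adjusted p = 0.0227 by limma). The call was lost without normal liver 1, 2 or 3, with adjusted p of 0.0616, 0.0661 and 0.0638 by limma, and without the filter on dim probes (adjusted p = 0.0660). Of 7 stellate cell and fibroblast markers 4 were called lower and 2 higher in tumors, beside 22.3% and 14.6% of all tested genes. Des and Pdgfrb lost their call with spike-in scaling and Reln with normexp. The summed signal of the 7 markers was 81.1 to 100.1 in normal livers and 23.0 to 43.1 in tumors. That fall was carried by Dcn, without which the sum was 3.67 to 5.31 and 5.19 to 5.92. The part of these cells in the Ngfr value was not tested.

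Tnfrsf9 (4-1BB), a costimulatory receptor of activated T and NK cells, read 34.5, 34.8 and 43.7 in normal livers and 196, 105 and 108 in tumors. That is a log2 difference of 1.80 (SE 0.26, adjusted p = 0.0046 by limma). This bright probe ends in a run of alternating G and T. A second Tnfrsf9 probe without such a run was well above background on no array, and its log2 difference was -0.30. The last 30 bases of both are shown because they differ in this run, set in capitals, which is 22 bases long.
Tnfrsf9 probe with the run: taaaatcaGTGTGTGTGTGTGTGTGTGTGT
Tnfrsf9 probe without a run: taacatatttgtctttaccttttttaaatc

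Probes with such runs moved together whatever gene they named. On the array 71 probes held at least 8 GT repeats in a row, the Tnfrsf9 probe included, and all 71 were called higher in tumors. Their log2 differences ran from 0.55 to 1.94 with a median of 1.22. The 32 probes with at least 8 AC repeats were all called lower, from -2.02 to -0.66. Of the other tested probes 12.3% were called higher. The part of the run in the Tnfrsf9 value was not tested. Without Tnfrsf9, 11 members and 8 receptors were called. No other member, and no gene of the pathway and marker lists below, was read by a probe with such a run.

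**Figure D3:**
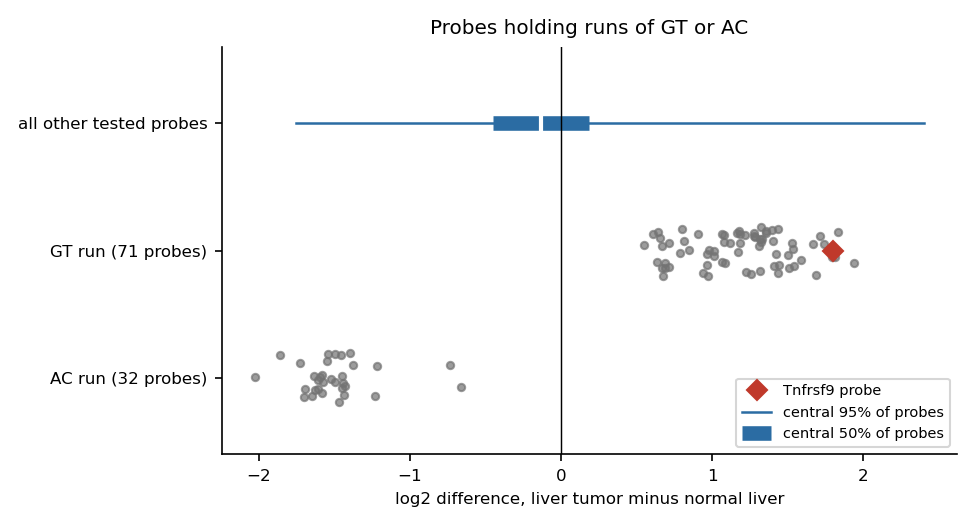
Log2 difference between liver tumor and normal liver of the 71 probes with a GT run and the 32 with an AC run, 1 point per probe and spread vertically only for visibility, with the central 50% and 95% of all other tested probes as blue bars. The Tnfrsf9 probe, at 1.80, is among the higher GT-run probes, all of which lie to the right of 0, while all AC-run probes lie to the left.

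The other tested receptors were not called. Tnfrsf11b (osteoprotegerin), a secreted decoy, read 0.440, 0.464 and 0.494 in normal livers and 0.115, 0.424 and 0.312 in tumors. Its groups did not overlap, but the log2 difference of -0.91 had a 95% interval of -2.01 to 0.19. Tnfrsf13b (TACI), Tnfrsf14 (HVEM), Tnfrsf19 and Tnfrsf25 differed by 0.40, -0.22, -0.25 and -0.30 on the log2 scale, each with an interval that included 0.

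Set side by side, the 3 listed receptors that rose most had no ligand that was measured as higher. Tnfrsf12a rose by 3.98, and its ligand Tnfsf12 differed by 0.18. Tnfrsf18 and Cd40 rose, and their ligands Tnfsf18 and Cd40lg were on no array well above background. Ltb and Ltbr were the ligand and receptor pair in which both were called higher, with the weak Ltbr call described above. These sets were not tested against each other.

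A further 11 receptors of the superfamily were on the array outside the listed members, and 4 of them were tested. Tnfrsf10b, the mouse death receptor of TRAIL, rose from background: it read 0.0727, 0.0298 and 0.0807 in normal livers, none well above background, and 3.61, 2.69 and 2.08 in tumors. In the processed signal it was at least 24.0-fold higher, counting each normal array at its detection floor (adjusted p = 4.3e-04 by limma). That bound holds for the processed signal only. Tnfrsf10b passed the filter only through the tumors, where it was brighter. Fas, the receptor of Fasl, differed by -0.55 (SE 0.15, adjusted p = 0.0308 by limma). That call was lost with spike-in scaling and without the filter on dim probes (adjusted p = 0.110 by limma). TRAIL itself was lower, as given above, so this ligand and its death receptor moved in opposite directions. Tnfrsf11a (RANK) differed by -0.33 and, like Tnfrsf4, was not called, and the remaining 7 were well above background on no array.

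Of the NF-kB subunits and inhibitors, 13 of 15 were tested, 3 were higher and 1 was lower, which is 30.8% beside 36.9% of all genes. Relb read 0.430, 0.313 and 0.537 in normal livers and 1.91, 1.35 and 1.30 in tumors, with a log2 difference of 1.85 (SE 0.24, adjusted p = 0.0033 by limma). Nfkb2 read 0.928, 0.860 and 0.906 in normal livers and 2.69, 1.71 and 1.81 in tumors, with a difference of 1.17 (SE 0.19, adjusted p = 0.0061 by limma). These are the subunits of the alternative route, and tumors and normal livers did not overlap for either. Tnip1, an inhibitor of NF-kB signalling, differed by 0.49 and Otulin, a deubiquitinase of linear chains, by -0.71. Rela, Nfkb1, Nfkbia and Tnfaip3 were not called.

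Of 26 receptor adaptors and proximal signalling genes, 25 were tested and 8 called, 4 in each direction (32.0%, beside 36.9% of all genes). The widest changes were Traf1 at 0.89 and Traf5 at 0.69, adaptors of these receptors, Cflar at -0.89, an inhibitor of caspase 8, and Ikbkg at -0.91, the regulatory subunit of the IkB kinase. Map3k14 differed by -0.02 and was not called. Among 9 tested chemokine and adhesion genes known to respond to Ltbr, 5 were higher and 1 lower. Cxcl1 differed by 1.81, Cxcl10 by 1.69 and Cxcl13, which attracts B cells, by 1.53. Cxcl12 was lower by 1.67 on the log2 scale: it read 99.1, 100.0 and 86.8 in normal livers and 20.7, 35.6 and 36.3 in tumors. These genes respond to many other signals. Of 8 tested genes that shed or process the ligands, 4 were higher and 2 lower. Rhbdf1 and Rhbdf2, cofactors of the sheddase Adam17, differed by 2.62 and 1.13, and Sppl2b and Furin by -0.64 and 0.53. Adam17 differed by -0.18 and was not called. Traf1 and Icam1, both called higher, passed the filter only through the tumors. No called gene of these lists changed direction under the other scalings, although Ikbkg, Chuk, Tank, Otulin, Sppl2a and Sppl2b lost their call with spike-in scaling, Traf1, Tank, Icam1 and Sppl2a with normexp, and Chuk and Sppl2a with quantile normalization.

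**Figure D4:**
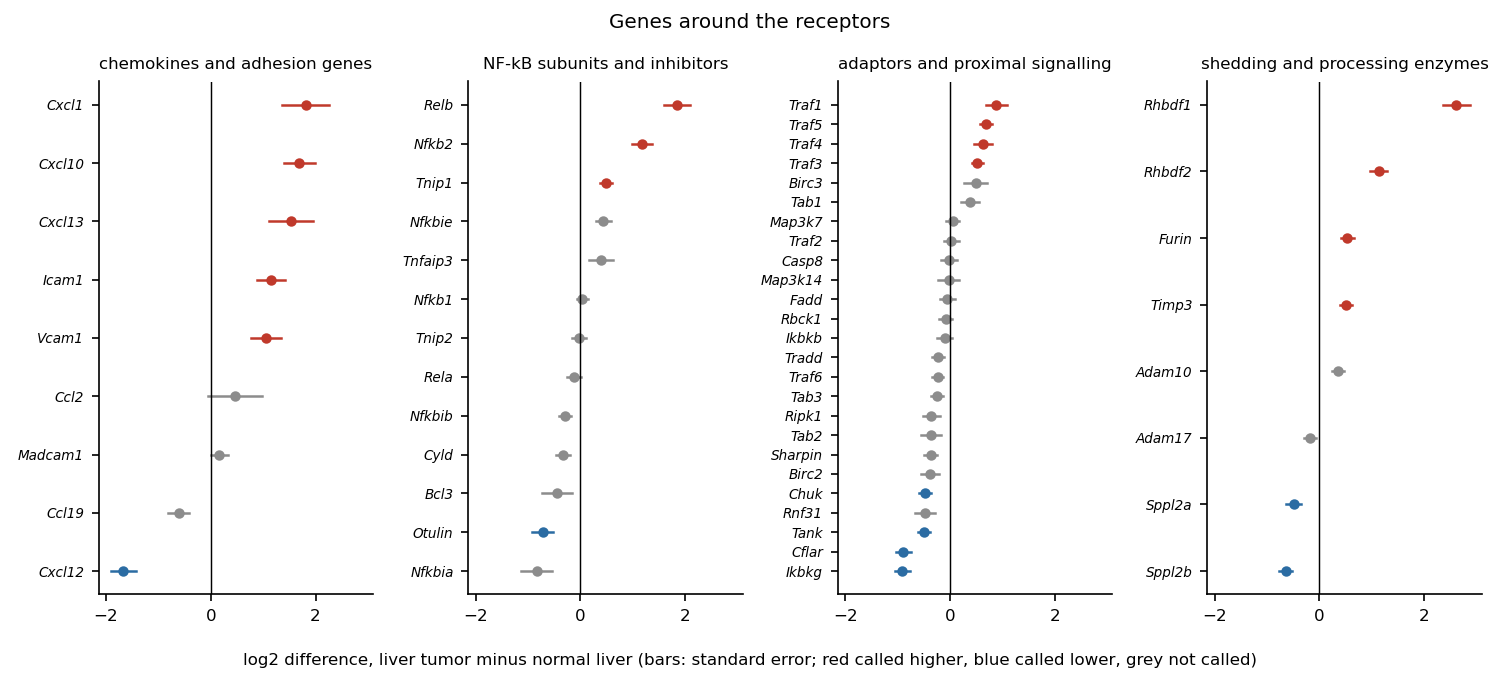
Log2 difference between liver tumor and normal liver, with its standard error, of each tested gene in 4 lists around the receptors. Red genes were called higher, blue lower and grey not called. Relb and Nfkb2 head the NF-kB list, while most adaptors lie near 0.

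The first tumor stood farthest from the normal livers. Across the tested probes its correlation with the normal livers was 0.914 to 0.916, beside 0.943 to 0.950 for the other tumors. Of the 12 called members, 11 were most extreme in tumor 1 and 1, Tnfrsf23, in tumor 2. Over all called genes tumor 1 was the most extreme in 66.0%. Without tumor 1, 11 of the 12 were still called, all but Ltbr.

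Many of these genes are known from lymphocytes and myeloid cells, so markers of those cells are given beside them. By comparison, 36.9% of all tested genes were called, 14.6% higher and 22.3% lower. Of 10 T cell markers 5 were tested, and only Cd4 was called, at 1.59 on the log2 scale. The summed T cell signal was 66.5 to 70.4 in normal livers and 142 to 245 in tumors. Without Cd4 it was 7.75 to 9.49 and 7.74 to 9.92, which overlapped. Cd3e differed by 0.03, and Cd8a and Cd8b1 were well above background on no array. Of 8 B cell markers 3 were tested and 0 called by limma, with 1 at an unadjusted p under 0.05 both there and in the methods' t-test. Their summed signal was 1.64 to 1.98 in normal livers and 2.26 to 2.32 in tumors, which did not overlap. Pax5 and Blk were above background on no array. Of 6 NK cell markers 2 were tested and 0 called by limma, with 0 at an unadjusted p under 0.05 by either test, with sums of 0.816 to 1.09 and 0.859 to 1.21.

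Of 8 macrophage and Kupffer cell markers, all tested, 6 were called lower in tumors. Among all tested genes 22.3% were called lower and 14.6% higher. The macrophage and Kupffer cell sums were 100.8 to 173 in normal livers and 51.4 to 84.7 in tumors. Csf1r and Cd68 lost their call with spike-in scaling and Cd5l with quantile normalization. Of 6 dendritic cell markers 2 were tested, and only Zbtb46 was called, higher in tumors, a call lost with normexp. Their summed signal was 0.725 to 0.870 in normal livers and 0.921 to 1.60 in tumors. Without Zbtb46 it was 0.407 to 0.495 and 0.405 to 1.01, which overlapped. Of 6 neutrophil markers 4 were tested and 0 called by limma, with 1 at an unadjusted p under 0.05 there and 0 in the methods' t-test. Of 7 cholangiocyte and progenitor markers 5 were tested and 2 called higher. Prom1 read 0.291, 0.325 and 0.332 in normal livers and 25.5, 32.9 and 25.8 in tumors, while Cldn7 read 0.631, 0.663 and 0.487 and then 5.07, 1.03 and 10.8. Krt19, Sox9 and Spp1 were not called. Of 7 endothelial markers, all tested, 2 were called lower (28.6%, beside 22.3% of all tested genes). Both lost that call with spike-in scaling. The part of any of these cell types in the Ltb, Cd40, Tnfrsf18 and Tnfrsf12a values was not tested.

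**Figure D5:**
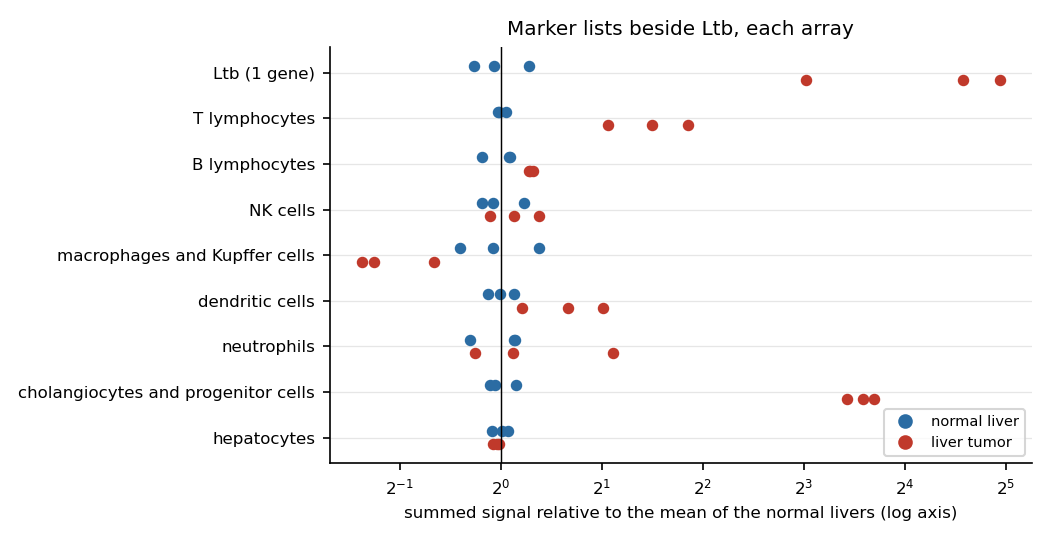
Summed relative signal of marker lists on each array, divided by the mean of the 3 normal livers, on a log axis, with Ltb as the top row. The lists of endothelial cells and of stellate cells and fibroblasts are not plotted. Normal livers are blue and tumors red. Ltb is higher in all tumors, with tumor 2 the lowest. Macrophage sums are lower in tumors, cholangiocyte and progenitor sums are higher through Prom1, and T cell sums are higher through Cd4.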

How the data were processed

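The authors hybridised 1-colour Agilent arrays and deposited the scanner output, with a processed intensity per spot (background subtracted and spatially detrended, per the study's methods), and a table of ratios to each array's 75th percentile, used as an alternative. Feature Extraction is version 10.7.3.1 in the file headers and 12.0.3.1 in the submitters' processing notes. Here each spot's log2 processed intensity was centred on the 75th percentile of its array and averaged per probe, without control or outlier spots. limma 3.58.1 (R 4.3.3; lmFit, eBayes) was fitted with tissue as the only factor to the 24901 probes that all arrays of either group showed well above background. Benjamini-Hochberg adjustment ran over all of them at a threshold of 0.05, and 8239 were called (33.1%). A gene was read by its brightest probe on average. For lower bounds of a fold, each array of the dim group was set at the probe's own signal or at the array's lowest flagged signal, whichever was greater. The fit was tested on simulated data. Names came from the accession (27235 probes), symbol (3581), an older symbol (565) or the array's own name (24300), with RefSeq GRCm38.p6. Values on every array are printed for Ltb, called members and members above background in 1 group only, with up to 4 called genes of each other list. Members, lists and motifs were chosen with earlier results of these data known. The number of arrays limits the precision.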

Additional observations from a re-analysis of the deposited data

How the results depend on the processing

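The 9 higher and 3 lower members kept their direction under each alternative that gave a value. Members called numbered 7 and receptors 5 when probes had to be well above background on all 6 arrays, which drops members dim in 1 group. The study's methods name a paired t-test, and both forms were run on linear values. For Ltb the unpaired form returned the unadjusted p-value that the study printed. The form paired by replicate number did not return it. The methods' t-test made unpaired gave 6 members, 1 ligand and 5 receptors after Benjamini-Hochberg adjustment, 5261 probes in all, and an Ltb log2 ratio of 4.39 that was no longer called. Tnfsf10, Ltbr, Tnfrsf9, Tnfrsf18 and Tnfrsf21 lost their call as well, with adjusted p of 0.0922, 0.0604, 0.0900, 0.0580 and 0.0522 by this test across all tested probes. At an unadjusted p under 0.05 it gave 12 members. Probes called were 5125 with scaling by the spike-in probes, 3173 higher and 1952 lower, against 3112 higher of 8239. That scaling moved the median log2 difference of the tested probes from -0.13 to 0.05. Without the filter 4674 probes were called. Leaving out each array gave 4954 to 7171 probes (4954 without normal liver 2), 10 to 12 members, 3 ligands, 7 to 9 receptors and an Ltb difference of 3.82 to 4.78.

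The labels do not say whether the replicate numbers pair the samples. Correlations of same-numbered deviations were 0.07, 0.13 and 0.05. Normal liver 3 correlated about equally with tumor 1 (0.054) and tumor 3 (0.051). With 3 arrays a group these values cannot decide whether same-numbered samples came from 1 animal. With the replicate block limma called 7021 probes and 11 members, all but Ltbr (adjusted p = 0.0594). The block also lost Traf1, Chuk, Cxcl1 and Cldn7 of the other lists. The methods' t-test paired by replicate number called 0 probes, 0 members, 0 ligands and 0 receptors after adjustment, and 7419 probes, 7 members, 1 ligand and 6 receptors at an unadjusted p under 0.05, with Ltb at 4.39 not called in either. Slide as a block could not be run, since no slide holds both groups. Leaving out probes with GT or AC runs, an alternative chosen after seeing the data, left 11 members and 8136 probes called. With 3 arrays a group, the size of a change is uncertain for members near background. A lower bound was given only where all 3 arrays of 1 group were well above background and none of the other.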
